A study of Mus musculus with 24 samples.

Results

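The genes described here are 10 transcripts that mark the choroid plexus, the epithelium in the brain ventricles that secretes cerebrospinal fluid, and the ependyma, the ciliated cell layer that lines the ventricles. Ttr, Enpp2, Aqp1, Kl, Folr1, Clic6, Otx2 and Prlr were taken for the choroid plexus, and Foxj1 and Ak7 for the ependyma. Every non-control probe whose RefSeq accession belongs to one of these genes was kept, which gave 12 of the 55681 probes on the array (the 10 genes are among 21368 named ones). Folr1 and Prlr have 2 probes each. A gene is represented by the probe with the higher mean level in the brain, and the other probe is given beside it. The rule names genes known to mark these cells and sets no threshold on a measured value. The members were chosen, though, with earlier results of these data known.

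The same 6 male mice, 3 WT and 3 Rap1 KI/KI, gave RNA of brain, liver, heart and skeletal muscle, each hybridised to 1 array, which makes 24 arrays. Rap1 KI/KI mice (called MUT in the sample labels) carry the point mutation I312R in both copies of Terf2ip, the gene of the telomere protein RAP1. The mutation was made with Crispr/Cas9 and stops RAP1 from binding TRF2 and so from reaching telomeres; it is constitutive, with no Cre or transgene, and the line was backcrossed 4 times to C57BL/6N mice. Each mouse is named here by its genotype and a replicate number, from WT1 to KI3, and has the same name in all tissues. The labels give an age of 5 months for WT1 and KI1 and of 2 months for the rest.

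Levels are the log2 of a background-subtracted intensity over the 75th percentile intensity of its own array, so that 0 is that percentile and a difference of 1 is a 2-fold change. A level is compared only with the level of the same probe on another array. That percentile ranged from 470.7 to 1389 intensity units over the 24 arrays, and 56.5% to 72.7% of the probes were well above background, by the scanner's own test of a spot against its local background. The number of arrays limits the precision. Terf2ip itself, which is mutated and not deleted, was well above background on all 24 arrays and its log2 difference between genotypes lay between -0.41 and 0.12 in the 4 tissues, with limma adjusted p from 0.66 to 1. The slides that held brain arrays carried WT1 with KI1, and WT2 and WT3 with KI2 and KI3, so slide and age cannot be told apart in the brain. All livers were on slide 1 and all muscles on slide 3, while brains were on slides 1 and 2 and hearts on slides 2 and 3. Liver and muscle, liver and heart, and brain and muscle thus shared no slide. A direct comparison within these pairs holds tissue and slide together. In bulk tissue, fewer cells of a type and less RNA per cell cannot be told apart.

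The choroid plexus is a folded sheet of epithelium over leaky capillaries, and it moves ions and water from blood to the ventricles through transporters and channels such as the water channel AQP1. It also makes and secretes carriers and enzymes into the cerebrospinal fluid, among them transthyretin (Ttr), which carries thyroid hormone and, with retinol binding protein, retinol. Ependymal cells beside it carry tufts of motile cilia, a programme that the forkhead factor FOXJ1 and RFX factors drive, and choroid plexus epithelial cells carry cilia as well. A whole brain holds little of either tissue, and several of the genes are also known from liver, kidney, vessels, airway or muscle.

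The RefSeq table of promoters (GRCm38.p6), with 250 bases before and 50 after each start site, holds 10 promoters of 5 members: Kl, Aqp1 and Ak7 with 1 each, Prlr with 3 and Otx2 with 4. Ttr, Enpp2, Folr1, Clic6 and Foxj1 have no entry. The promoters of Kl, Aqp1 and Ak7 are printed because these genes had contrasting patterns across the tissues: Kl was highest in the brain, Aqp1 lowest there, and Ak7 was well above background in brain and liver alone. Both strands were searched for the core of OTX homeodomain sites (TAATCC), a core of RFX factor sites (GTTGCC), the forkhead core (GTAAACA) and the GC box (GGGCGG), and capitals mark each match. No 2 matches overlap. The first of the 50 later bases is position 1, bases before it have negative numbers, and no base is 0.
Kl, chr5:150952357-150952656, plus strand: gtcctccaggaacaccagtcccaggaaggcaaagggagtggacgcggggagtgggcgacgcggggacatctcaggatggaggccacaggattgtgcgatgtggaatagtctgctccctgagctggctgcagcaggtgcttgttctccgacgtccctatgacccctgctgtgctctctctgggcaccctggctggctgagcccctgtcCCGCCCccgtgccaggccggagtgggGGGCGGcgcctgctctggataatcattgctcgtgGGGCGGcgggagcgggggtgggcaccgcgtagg
Aqp1, chr6:55336049-55336348, plus strand: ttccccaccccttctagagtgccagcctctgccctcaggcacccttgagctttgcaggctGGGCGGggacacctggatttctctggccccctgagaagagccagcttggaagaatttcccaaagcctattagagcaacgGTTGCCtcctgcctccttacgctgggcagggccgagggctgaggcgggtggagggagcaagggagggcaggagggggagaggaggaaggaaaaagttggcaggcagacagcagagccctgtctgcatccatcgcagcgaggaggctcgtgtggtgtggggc
Ak7, chr12:105705732-105706031, plus strand: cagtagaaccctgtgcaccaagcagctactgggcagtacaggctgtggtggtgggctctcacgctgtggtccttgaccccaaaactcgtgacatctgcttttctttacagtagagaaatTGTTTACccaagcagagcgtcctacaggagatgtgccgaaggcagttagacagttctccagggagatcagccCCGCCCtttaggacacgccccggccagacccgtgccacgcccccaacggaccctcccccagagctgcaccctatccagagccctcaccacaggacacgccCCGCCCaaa

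Kl held 3 GC boxes, with first bases at -43, -17 and 18, and none of the other motifs. Aqp1 held a GC box at -190 and an RFX core at -111. Ak7, which encodes an adenylate kinase of motile cilia, held a forkhead core on the opposite strand at -131 and 2 GC boxes, also on the opposite strand, at -59 and 42. Among all 32851 promoters of the table, the GC box occurred in 35.7%, the RFX core in 12.5%, the OTX core in 7.06% and the forkhead core in 3.65%. Of the promoters that are not printed, 2 of Otx2 held RFX cores, 1 of Otx2 held the OTX core and 1 of Prlr held a forkhead core. A match is a description of these letters and not a binding site.

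All 10 members were well above background in all 6 brains, so the arrays detected transcripts known from both cell types there. Which cells of the brain these came from was not tested. Of the 10, 6 were higher in the brain than in each of the other 3 tissues (Enpp2, Kl, Folr1, Clic6, Otx2 and Foxj1), against 17.5% of the 42469 probes tested, and 1 was lower in the brain than in each of them (Aqp1), against 23.6%. The probe of Folr1 was chosen for its higher level in the brain, its other probe did not exceed the liver, and without Folr1 the count is 5 of 9. Ttr and Prlr were higher in the liver than in the brain. Ak7 was higher in the brain than in heart and muscle and lower than in the liver. Tissues were compared with limma over all 24 arrays, in 8 groups of tissue and genotype, at an adjusted p of 0.05.

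**Figure D1:**
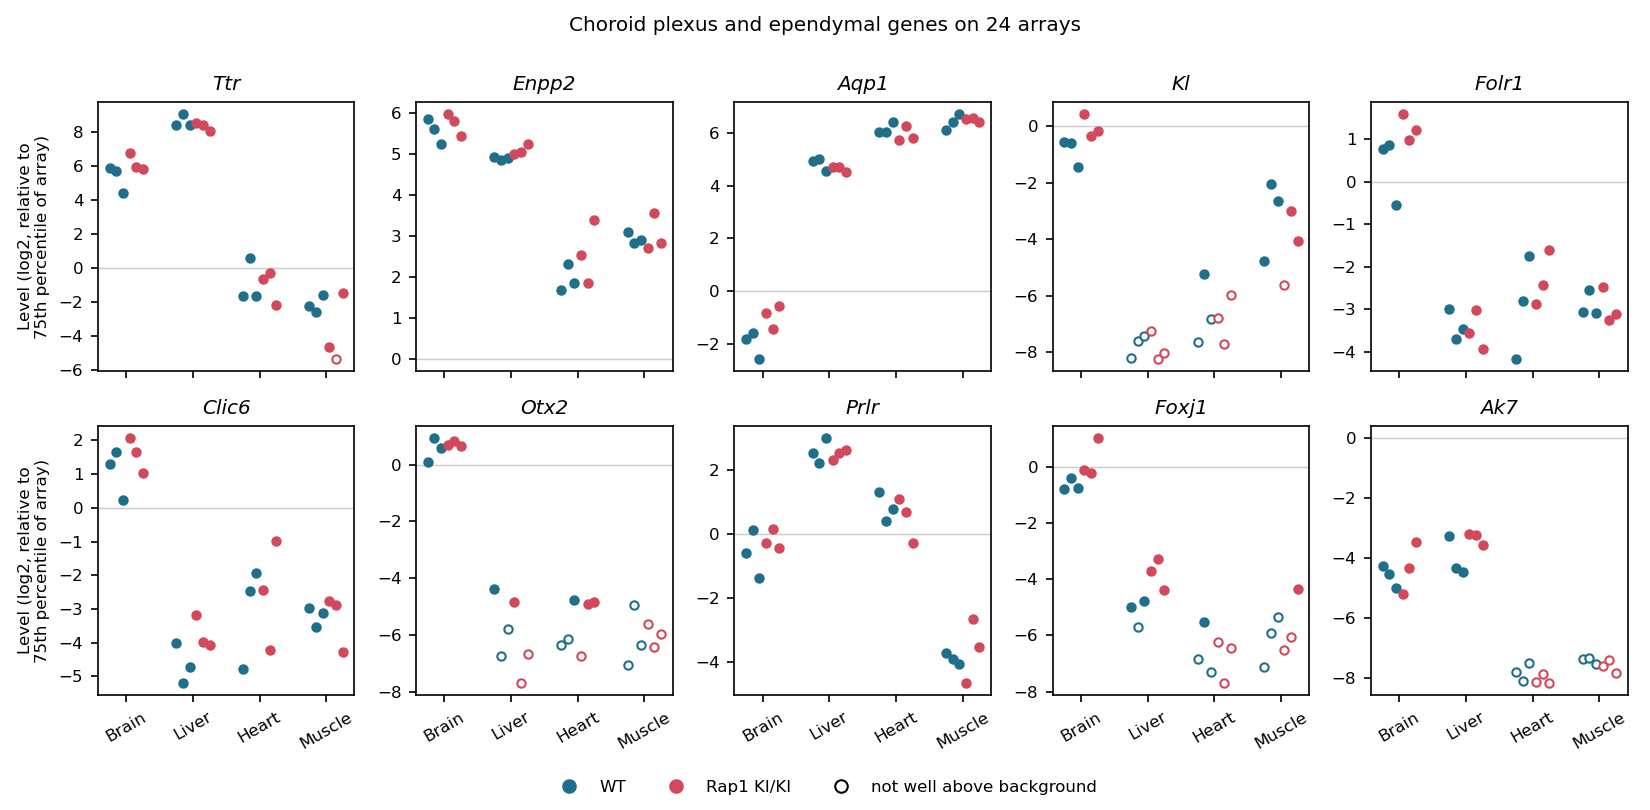
Level of each member (y axis, log2 over the array's 75th percentile) in 4 tissues (x axis), 1 point for each of 3 WT (blue) and 3 Rap1 KI/KI (red) mice, with open points where the probe was not well above background. The scale differs between panels; Aqp1 had its lowest levels in the brain, Ttr and Prlr their highest in the liver, and Kl, Otx2 and Foxj1 were mostly open outside the brain.

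Among the secreted proteins, Ttr (NM_013697) ran from 8.07 to 9.06 in the livers (median 8.43) and from 4.43 to 6.77 in the brains (median 5.85). In the hearts it lay between -2.18 and 0.58 (median -1.14), and in the muscles between -5.34 and -1.44, where 5 of 6 arrays were well above background. The ranges of liver and brain did not overlap each other or those of heart and muscle. The brain was lower than the liver (-2.73, SE 0.55, limma adjusted p = 0.00016), and it was higher than the heart by 6.72 (SE 0.55) and than the muscle by 8.73 (SE 0.55). The difference of 2.00 between heart and muscle (adjusted p = 0.0060) fell short of the threshold in WT arrays alone (1.21, adjusted p = 0.14) and with the slide as a block (1.05, adjusted p = 0.30). That call was also lost for 3 of the 6 mice left out in turn.

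Enpp2 (NM_001136077), which encodes autotaxin, the secreted enzyme that makes lysophosphatidic acid, was bright in all 4 tissues. It ran from 5.24 to 5.97 in the brains, from 4.85 to 5.26 in the livers, from 1.67 to 3.39 in the hearts and from 2.70 to 3.56 in the muscles. The brain was higher than the liver by 0.65 (SE 0.22, adjusted p = 0.011), a 1.57-fold difference, and the lowest brain (WT3) lay within the range of the livers. Without mouse KI1 that difference was 0.56, with an adjusted p of 0.063.

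In heart and muscle, Ttr and Enpp2 were highest in mice that were also high in markers of cells known to express them. Alb, the albumin gene of liver cells, was at -0.01, 2.95 and -0.46 in the hearts of WT1, WT2 and WT3 and at 1.42, 1.76 and -0.05 in those of KI1, KI2 and KI3. Ttr had its highest heart levels in the same mice and in the same order, 0.58 in WT2, -0.25 in KI2 and -0.64 in KI1. In the muscles, Alb was lowest in KI1 (-2.29) and KI2 (-1.30), where Ttr was also lowest (-4.67 and -5.34). Ttr was highest in the muscle of KI3 (-1.44), where Alb was at 0.18, against -1.59 and 0.49 in WT3. Brain cell markers of the KI3 muscle are given with Foxj1 below. Of the 8 hepatocyte markers, 7 to 8 were well above background in each heart and 6 to 7 in each muscle, with a mean level from -1.40 to 1.07 in the hearts and from -1.87 to -0.11 in the muscles, against 8.20 to 8.99 in the livers. Their part in the Ttr levels was not tested.

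Enpp2 was highest among the hearts in KI3 (3.39) and KI1 (2.53) and highest among the muscles in KI2 (3.56). Adipoq, which fat cells express, was at 4.86, 4.05 and 6.56 in these 3 samples. It was from -4.23 to 0.72 in the other 4 hearts and from 1.99 to 5.62 in the other muscles. KI1, the muscle lowest in Enpp2 (2.70), had Adipoq at 4.11, above the 1.99 of WT2, where Enpp2 was at 2.83. The 8 adipocyte markers had a mean level from -2.26 to 3.63 in the hearts, from 1.39 to 5.31 in the muscles and from -6.19 to -5.28 in the brains, with KI3 the highest heart and KI2 the highest muscle. The call of Enpp2 between heart and muscle (-0.72, SE 0.22, adjusted p = 0.012) was lost without WT1 (-0.61, adjusted p = 0.076) or KI2 (-0.40, adjusted p = 0.14), the mice with the highest Adipoq among the muscles (5.62 and 6.56), and with the slide as a block (-0.36, adjusted p = 0.38). The part of fat tissue in the Enpp2 levels was not tested.

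**Figure D2:**
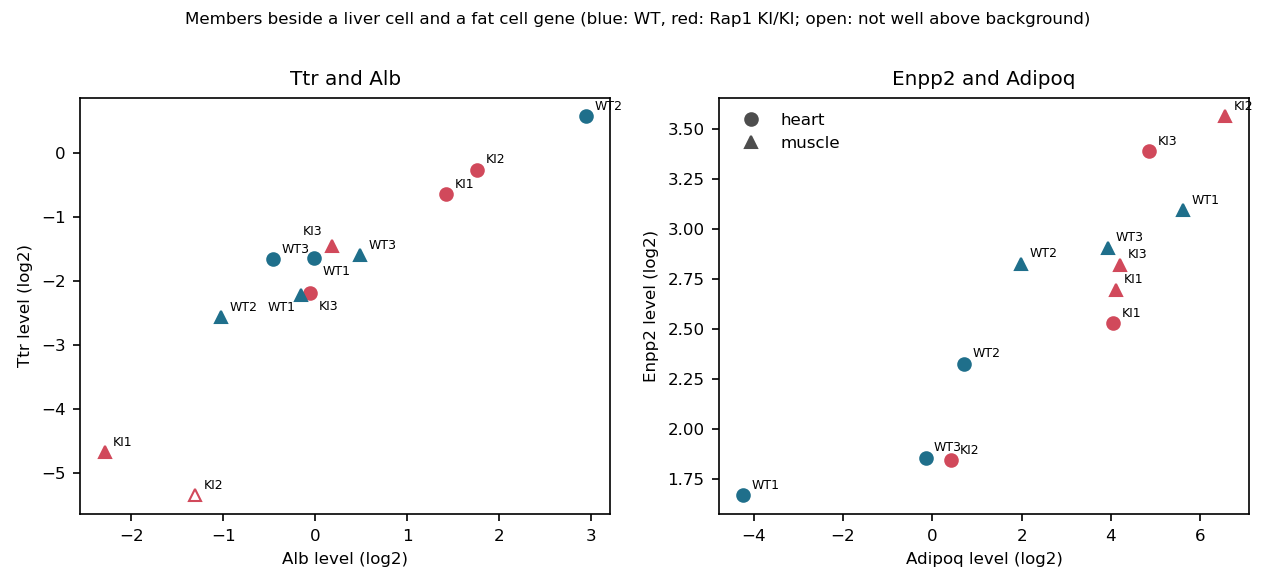
Levels of Ttr against Alb (left) and of Enpp2 against Adipoq (right), log2 over the array's 75th percentile, in 6 hearts (circles) and 6 muscles (triangles), blue for WT and red for Rap1 KI/KI. In each tissue the 3 mice highest in Alb were the 3 highest in Ttr, and the mice highest in Adipoq, KI3 among the hearts and KI2 among the muscles, were the highest in Enpp2.

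The carriers and deiodinases that handle thyroid hormone and retinol were listed with Ttr. Of 10 such genes, 7 were higher in the brain than in the mean of the other tissues and 2 lower, against 29.8% and 47.4% of all probes. The same shares stand beside each later list compared in this way. The leading genes were Crym, a thyroid hormone binding protein of the cytosol (4.94, SE 0.24), Slco1c1, a thyroxine transporter (4.89, SE 0.20), and Dio2, the activating deiodinase (4.89, SE 0.48). Stra6, the cell receptor for retinol binding protein, was higher by 3.48 (SE 0.38). In the lysophosphatidic acid list, Enpp2 and the receptor gene Lpar1 (2.33, SE 0.27) were the 2 of 9 genes higher in the brain, and 3 were lower.

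Transport genes split in 2 directions. Aqp1 (NM_007472) ran from 5.75 to 6.40 in the hearts, from 6.12 to 6.71 in the muscles and from 4.51 to 5.03 in the livers, and its 6 brain levels were from -2.57 to -0.56. It was 74.4-fold lower in the brain than in the liver (-6.22, SE 0.19, adjusted p = 2.6e-16), and the brain differed from the heart by -7.52 and from the muscle by -7.93 (SE 0.19 each). The brain range was far from those of the other tissues, and heart and muscle did not differ beyond their spread (-0.42, SE 0.19, adjusted p = 0.079). Aqp1 is known from capillary endothelium outside the brain and from red blood cells as well as from the choroid plexus. Of 8 endothelial markers, 7 were lower in the brain than in the mean of the other tissues and 1 higher, with a mean level from -0.03 to 0.45 in the brains, 0.63 to 0.95 in the livers, 2.52 to 3.18 in the hearts and 1.74 to 2.32 in the muscles. All 7 measured red blood cell markers were lower in the brain, among them Hba-a2 (-1.09) and Hbb-b1 (-2.43). Their mean level was 1.49 to 2.02 in the brains, 3.46 to 3.96 in the livers, 5.73 to 6.37 in the hearts and 2.16 to 3.76 in the muscles. The part of vessels and blood in the Aqp1 levels was not tested.

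Of the 8 aquaporins listed, 2 were higher and 4 lower in the brain, with a median difference of -1.26. Aqp4, the aquaporin of astrocyte end feet and of ependyma, was higher by 2.89 (SE 0.32), and Aqp11 by 1.00 (SE 0.18).

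Clic6 (NM_172469), an intracellular chloride channel protein, was at 1.29, 1.67 and 0.22 in the WT brains and at 2.06, 1.64 and 1.04 in the Rap1 KI/KI brains. It was well above background on all 24 arrays, and outside the brain it ran from -5.19 to -0.98. The brain exceeded the liver by 5.51 (SE 0.51), the heart by 4.12 (SE 0.51) and the muscle by 4.57 (SE 0.51), all with an adjusted p under the threshold. Liver and muscle, and heart and muscle, were not called apart, and the call between liver and heart (-1.38, adjusted p = 0.022) was lost without WT2, WT3 or KI3. Clic6 was the 1 gene of 5 chloride intracellular channels that was higher in the brain; Clic1, Clic3, Clic4 and Clic5 were lower, from -0.72 for Clic4 to -3.11 for Clic5.

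Folr1 encodes a folate receptor that carries folate into the cerebrospinal fluid. Its brighter probe (NM_001252552) was at 0.78, 0.87 and -0.56 in the WT brains and at 1.58, 0.98 and 1.21 in the Rap1 KI/KI brains, and between -4.16 and -1.61 in the 18 other samples. The brain was higher than liver, heart and muscle by 4.24, 3.41 and 3.73 (SE 0.35 each). The second probe (NM_008034) gave another picture: its brain levels ran from -4.76 to -3.43, its difference from the liver was 0.09 (SE 0.23, adjusted p = 0.71), and it was called higher than in heart and muscle (adjusted p = 1.3e-05 and 8.9e-06). The second probe was well above background in 2 of 6 hearts and 1 of 6 muscles. By it the liver was higher than the heart (1.35), while by the first probe it was lower (-0.83, adjusted p = 0.042). The high brain level of Folr1 against the liver thus rests on 1 probe, and which transcripts each probe detects was not tested. Among the other folate genes, Slc19a1, the reduced folate carrier, was higher in the brain by 0.27 (SE 0.12), while Slc46a1, the proton-coupled transporter, and Folr2 were lower (-0.47 and -4.56).

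Among the receptors and coreceptors, Kl (NM_013823), which encodes Klotho, the coreceptor for FGF23, was at -0.55, -0.58 and -1.43 in the WT brains and at 0.42, -0.34 and -0.15 in the Rap1 KI/KI brains. No liver array was well above background, and 1 of 6 hearts and 5 of 6 muscles were. Kl was at least 113-fold higher in the brain than in the liver (adjusted p = 6.4e-11), by a bound used for members not above background. For each dimmer array the bound takes the dimmest signal among all probes well above background, or the member's own level where that is higher. It is not a detection limit of the member's own probe, which was not measured, so the bound is approximate. It also applies to the main processing alone. In the alternatives the log2 difference of Kl between brain and liver fell to as little as 3.46, and that of liver minus muscle to -1.49. Kl was also called between brain and heart (adjusted p = 1.4e-09), with no exact difference since 5 of 6 hearts were not above background. The brain exceeded the muscle by 3.25 (SE 0.50, adjusted p = 9.8e-06), and by the same bound Kl was at least 11.9-fold higher in the muscle than in the liver. The muscles were spread from -5.62 in KI1 to -2.05 in WT2, and liver and heart did not differ at the threshold (adjusted p = 0.058). Of the 7 genes of the FGF23 list, 4 were higher in the brain and 2 lower: Fgfr3 by 2.72 (SE 0.14), Fgf23 by 1.70 (SE 0.32) and Fgfr1 by 0.59 (SE 0.16), beside Kl.

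Prlr (NM_011169), the prolactin receptor, had the order liver, heart, brain, muscle from high to low. It ran from 2.21 to 3.00 in the livers, from -0.26 to 1.32 in the hearts, from -1.36 to 0.17 in the brains and from -4.64 to -2.66 in the muscles. The brain was lower than the liver (-2.93, SE 0.31) and higher than the muscle by 3.35 (SE 0.31), and the ranges of brain and heart overlapped. The lower level in brain than in heart (-1.06, SE 0.31, adjusted p = 0.0054) was not seen by the second probe (-0.24, SE 0.27, adjusted p = 0.45), or in Rap1 KI/KI arrays alone (-0.69, adjusted p = 0.23). By both probes the liver was the highest and the muscle the lowest. Of the 7 measured genes of the prolactin receptor pathway, 6 were lower in the brain than in the mean of the other tissues and none higher, among them Jak2 (-0.96, SE 0.12), Socs2 (-2.07, SE 0.34) and Stat5b (-2.62, SE 0.14).

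The transcription factors Otx2 and Foxj1 were well above background in all brains and in few samples of heart and muscle. Otx2 (NM_001286481), a homeodomain factor that choroid plexus epithelium keeps expressing in the adult, ran from 0.11 to 0.93 in the brains and was well above background in 2 livers, 3 hearts and no muscle. By the bound given with Kl, it was at least 83.3-fold higher in the brain than in the muscle (adjusted p = 5.1e-10). In the alternatives this log2 difference of Otx2 fell to as little as 3.46. Otx2 in the brain was also called higher than in the liver and the heart (adjusted p = 3.1e-10 and 1.4e-09). Otx2 is also known from the pineal gland. Of the 8 pituitary and pineal markers, 4 to 6 were well above background in each brain, and of the 5 tested across tissues Pomc alone was higher in the brain (3.27, SE 0.45). Single brains stood apart in these markers: Aanat, the pineal enzyme of melatonin synthesis, was at 8.62 in WT1 and from -0.92 to -0.24 in the others, and the pituitary genes Pomc and Gh were at 4.57 and -0.64 in KI2 and at most 1.24 and -5.19 in the others. Otx2 was at 0.11 in WT1, its lowest brain, and at 0.83 in KI2. Liver, heart and muscle could not be ordered for Otx2, since most of their arrays were not above background.

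Foxj1 (NM_008240) was at -0.79, -0.38 and -0.75 in the WT brains and at -0.12, -0.21 and 1.03 in the Rap1 KI/KI brains. In the livers 5 of 6 arrays were well above background, with levels from -5.71 to -3.28, and in hearts and muscles 1 of 6 each. The brain was higher than the liver by 4.26 (SE 0.42). It was also called higher than the heart and the muscle (adjusted p = 6.3e-11 and 3.7e-10), with no exact difference since most of those arrays were not above background. The single muscle above background was that of KI3 (-4.35), whose 8 neuron markers had a mean level of 1.83, against -2.00 in KI1 and -4.46 to -3.85 in the other 4 muscles. Astrocyte markers in that muscle had a mean level of 1.635, against -3.02 to -2.18 in the WT muscles. Its forebrain markers were at -1.125, against -5.95 to -5.76, and its cerebellum markers at -3.58, against -4.785 to -4.713. The source of these transcripts in the muscle was not tested.

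Ak7 (NM_030187) was at -4.26, -4.51 and -5.00 in the WT brains and at -5.19, -4.32 and -3.44 in the Rap1 KI/KI brains, and from -4.45 to -3.20 in the livers. No heart or muscle array was well above background. By the bound given with Kl, Ak7 was at least 5.10-fold higher in the brain than in the heart and at least 3.45-fold higher than in the muscle. By it the liver exceeded these 2 tissues at least 8.75-fold and 5.92-fold. The brain was lower than the liver (-0.78, SE 0.25, adjusted p = 0.0079), a call that was lost in WT arrays alone (-0.57, adjusted p = 0.14) and without KI1 (-0.53, adjusted p = 0.073), and the ranges overlapped. After normexp background correction the difference of Ak7 between brain and muscle was -0.11 (adjusted p = 0.56). The difference between liver and muscle fell to as little as 0.30 in the alternatives, with a limma adjusted p up to 0.12. Against the heart, the log2 difference of Ak7 fell there to as little as 0.53 for the brain and 0.93 for the liver. Of the 9 adenylate kinases, 4 were higher and 4 lower in the brain, led by Ak5, a neuronal isoform (8.87, SE 0.47), and Ak8, a ciliary one (3.89, SE 0.20).

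Between pairs of tissues, limma called all 10 members between brain and liver, brain and heart, and brain and muscle, where 79%, 67.7% and 70.2% of the probes were called. Away from the brain it called 8 between liver and heart (66.7% of probes), 7 between liver and muscle (71.1%) and 4 between heart and muscle (43.5%), namely Ttr, Enpp2, Kl and Prlr. These counts away from the brain were near the share of all probes called.

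Other genes of the 2 cell types were read from lists that hold no member. Of 29 measured genes known from choroid plexus epithelium, 17 were higher in the brain than in the mean of the other tissues and 8 lower. Of all probes, 29.8% were higher and 47.4% lower, shares that also stand beside the 2 lists below. Car12, a carbonic anhydrase, led with 7.39 (SE 0.28), followed by Kcne2, a potassium channel subunit (6.33, SE 0.56), Slc13a4, a sulfate transporter (4.39, SE 0.31), Kcnj13, a potassium channel (3.51, SE 0.29), and Ecrg4 (3.45, SE 0.67). Of 28 multiciliated and ependymal genes tested, 24 were higher and 2 lower. Spef2, which sperm tails and cilia need, was higher by 8.59 (SE 0.61), Tmem212 by 7.37 (SE 0.25), Ccdc153 by 6.98 (SE 0.45), the axoneme gene Spag6l by 6.73 (SE 0.34) and the dynein regulator Drc1 by 5.85 (SE 0.53). Among the regulators of multiciliation, 7 of 11 were higher and 1 lower, with Myb at 2.78 (SE 0.42), Rfx4 at 2.55 (SE 0.15), Gmnc at 2.30 (SE 0.22), Rfx3 at 2.19 (SE 0.41) and Ccno at 2.02 (SE 0.29).

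Between genotypes, no probe passed an adjusted p of 0.05 in limma's separate fit of any tissue. In the brain this was 0 of 37846 probes (0%), with 2.62% at an unadjusted p under 0.05, and 2 of the 10 members were at such a p. The adjusted p of every member there was 1. All 10 members had a higher mean in the Rap1 KI/KI brains than in the WT brains, against 41.9% of all probes, with a median difference of 0.68 against -0.05 over all probes. Since members and lists were chosen with earlier results of these data known, such shares are no independent test. For 4 of them (Aqp1, Kl, Folr1 and Foxj1) all Rap1 KI/KI brains lay above all WT brains, against 4% of all probes. By its second probe Folr1 differed by 0.48 (SE 0.32) with overlap of the groups (exact permutation p = 0.3), and the second probe of Prlr by 0.27 (SE 0.28), so the non-overlap of Folr1 holds for 1 of its 2 probes. By the probes used, these 4 genes reached p = 0.1 in an exact permutation test (two-sided), the smallest that 3 against 3 mice allow.

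Aqp1 was at -1.80, -1.60 and -2.57 in the WT brains and at -0.82, -1.45 and -0.56 in the Rap1 KI/KI brains. The lowest Rap1 KI/KI brain was just above the highest WT brain. Its difference was 1.04 (SE 0.35, limma adjusted p = 1), a 2.06-fold higher mean, and it and Kl were the 2 at an unadjusted p under 0.05. Foxj1 differed by 0.87 (SE 0.37), Folr1 by 0.89 (SE 0.42), Kl by 0.83 (SE 0.33) and Ttr by 0.85 (SE 0.46). Clic6 differed by 0.52 (SE 0.45) and Prlr by 0.41 (SE 0.41), while Ak7, Otx2 and Enpp2 were at 0.27, 0.18 and 0.17, each smaller than its standard error. Within slides, 9 of 10 members were higher in KI1 than in WT1 (median 0.72; Ak7 at -0.93), and 9 of 10 were higher in KI2 and KI3 than in WT2 and WT3 (median 0.79; Otx2 at -0.02).

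**Figure D3:**
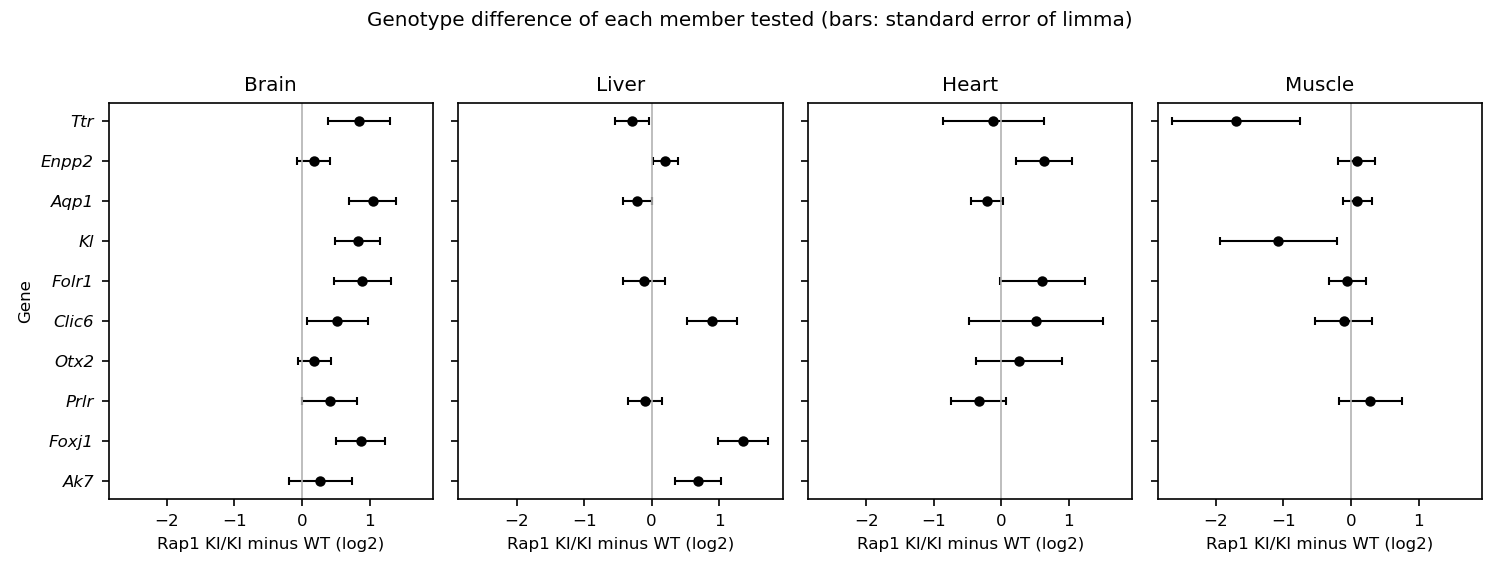
Difference of each tested member between Rap1 KI/KI and WT mice (x axis, log2, n = 3 per genotype) in 4 tissues, with bars of 1 standard error from limma; a member without a point was not tested in that tissue. All 10 points lie above 0 in the brain, as do 4 of 8 points for the liver, 4 of 7 for the heart and 3 of 7 for the muscle.

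The size of the difference in the brain depended on mouse WT3. WT3 had the lowest brain level of 7 members (Ttr, Enpp2, Aqp1, Kl, Folr1, Clic6 and Prlr), or 70%, against 12.9% of all probes. KI1 had the highest level of 5 members (Ttr, Enpp2, Kl, Folr1 and Clic6), or 50%, against 15.9% of all probes. Without WT3 the median difference of the members fell from 0.68 to 0.30, with 10 still higher. Then 4 lay higher without overlap, against 4.85% of all probes, and no member was at an unadjusted p under 0.05. With each other mouse left out, the median lay between 0.58 and 0.90, and 9 or 10 members were higher; without KI1 or KI3 no member was at an unadjusted p under 0.05. The 6 brains spread more at the members than at most probes, with a median range of 1.83 against 0.87 over all probes tested in the brain.

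**Figure D4:**
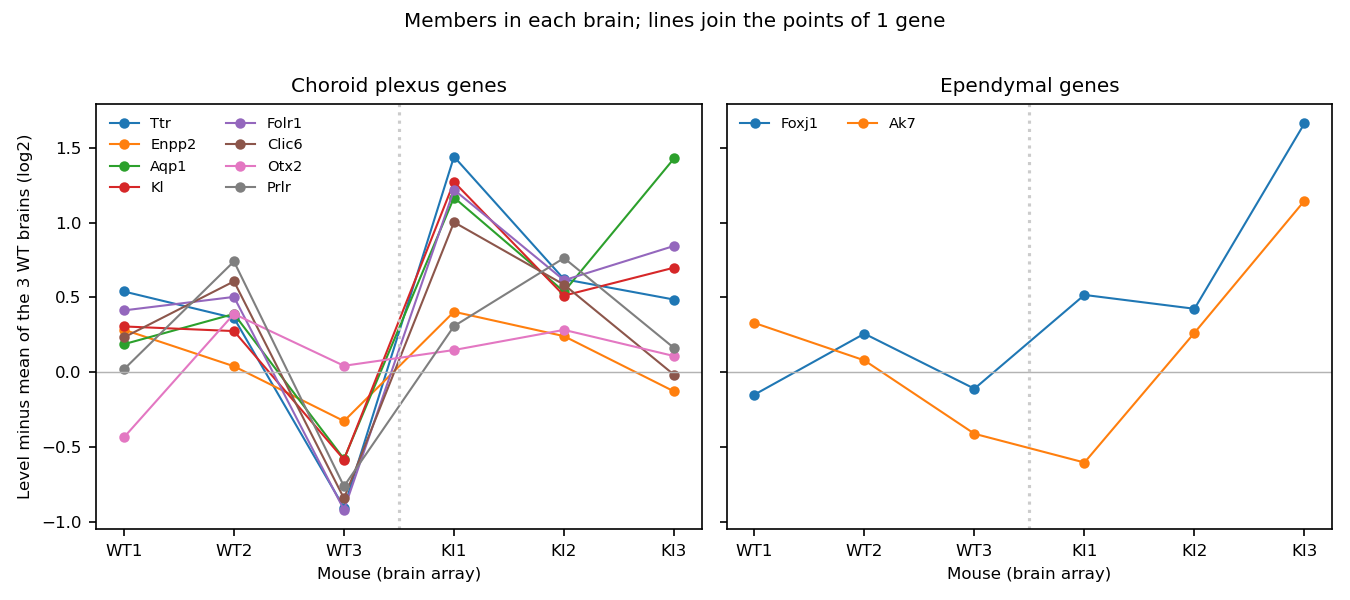
Level of each member in each brain minus its mean over the 3 WT brains (y axis, log2), with lines that join the points of 1 gene. The choroid plexus genes (left) dip together in WT3, except Otx2, and 5 of 8 are highest in KI1, while Foxj1 and Ak7 (right) are highest in KI3.

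Most choroid plexus members varied together over the 6 brains. Pearson's r between 2 choroid plexus members ran from -0.14 to 0.97 over 28 pairs (median 0.74), and between a choroid plexus and an ependymal member from -0.19 to 0.84 over 16 pairs (median 0.25). By Pearson's r, Otx2 was the exception among the choroid plexus genes, with r from -0.14 to 0.29 with 6 of the other 7 and 0.52 with Prlr. Its Spearman's rho was 0.89 with Prlr and 0.66 with Clic6, and from 0.09 to 0.43 with the rest. By rank, Foxj1 was close to Aqp1 (Spearman's rho 0.94), Folr1 (0.89) and Kl (0.77), while Foxj1 and Ak7, with r = 0.67, had a rho of 0.09. These r describe 6 brains of 2 genotypes on 2 slides.

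Among 15816 named genes well above background in all 6 brains, the pattern most like that of Ttr was that of Slc4a5 (r = 0.99), a bicarbonate transporter of the choroid plexus that the list of other choroid plexus genes also holds. Its brain levels were -2.52, -2.47 and -3.79 in WT1, WT2 and WT3 and -1.50, -2.20 and -2.44 in KI1, KI2 and KI3, so it shared the low value of WT3 and the high value of KI1. Imp3, Rplp1, Chgb and Tmem184a followed, with r from 0.98 to 0.99. Of these, the first 3 had narrow ranges, such as 6.58 to 6.83 for Rplp1. Members came at rank 21 (Kl, r = 0.97), 36 (Folr1, r = 0.96) and 128 (Clic6, r = 0.92) in likeness to Ttr, and Otx2 and Ak7 showed little likeness (r = 0.08 and 0.04).

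Genes with a pattern much like that of Foxj1 were Palld, Loxl2, Stard5 and Kdm4a (r above 0.99 for each), none of them in the list of multiciliated genes. These share a single high value in KI3. Aqp1 was the member nearest to Foxj1 (r = 0.84, rank 1163).

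Other choroid plexus genes were mostly higher in mean as well. Of 29 tested, 28 were higher in mean in the Rap1 KI/KI brains, with a median difference of 0.59. For 9 all Rap1 KI/KI brains lay above all WT brains, against 4% of all probes. No gene passed the adjusted threshold. Those with the smallest p were Col8a1, a collagen (0.96, SE 0.30), Wdr86 (0.85, SE 0.28) and Wfikkn2, a secreted protease inhibitor (0.59, SE 0.20), each with an adjusted p of 1 in limma. Without WT3, 26 of the 29 were higher, the median was 0.32 and 9 lay higher without overlap, against 4.85% of all probes. WT3 was the lowest brain for 62.1% of these genes, and KI1 was the highest for 44.8% and KI3 for 37.9%. The median was 0.45 without KI1 and 0.46 without KI3.

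Of 28 multiciliated genes tested, 22 were higher in mean in the Rap1 KI/KI brains and 6 lower (median 0.41), and 1 did not overlap in each direction. Of all probes, 4% lay higher without overlap. KI3 was the highest brain for 78.6% of them, where 16.5% of all probes were highest in KI3, and WT3 the lowest for 57.1%. Single mice moved these values: the median was 0.15 without KI3, 0.17 without WT3 and 0.78 without KI1. Without KI1, 14 of the 28 lay higher without overlap, against 7.24% of all probes. Dnah11, an axonemal dynein, was at -3.32, -2.69 and -4.18 in the WT brains and at -2.11, -2.34 and -1.27 in the Rap1 KI/KI brains (1.49, SE 0.46, limma adjusted p = 1). Mia (0.92, SE 0.40) and Hydin, a protein of the central pair of cilia (0.60, SE 0.32), came next by p. Regulators of multiciliation had a median difference of 0.08 over 11 genes, 8 of them higher.

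The brain samples also differed in regional and neighbouring markers. The 8 cerebellum markers were all higher in mean in the Rap1 KI/KI brains (median 1.29), with mean levels of 2.97 in KI1, 1.81 in KI2 and -1.05 in KI3 and from -1.52 in WT3 to 0.97 in WT1. Their median was 0.46 without KI1, 0.79 without WT3 and 2.21 without KI3. The 8 forebrain markers were all lower in mean (median -0.53, and -0.26 without WT1 and -0.35 without KI3, with 6 and 5 of 8 lower). All 8 meningeal fibroblast markers were higher (median 0.51), 4 of them without overlap, against 4% of all probes. The highest mean level of these markers was in KI3 (0.98), against -0.37 to 0.08 in the WT brains and 0.13 and 0.28 in KI2 and KI1. Their median was 0.29 without KI3. Neuron markers had a median difference of -0.04, and their mean level was lowest in KI3 (4.93, against 5.34 to 5.76 in the other brains). Astrocyte markers were higher for 6 of 8 (median 0.41), among them Aqp4 (1.00, SE 0.26, adjusted p = 1). No gene of these lists passed the adjusted threshold, and their part in the levels of the choroid plexus and ependymal genes was not tested.

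The hepatocyte markers stood apart in 1 brain. Their mean level was -1.44 in WT1, with all 8 well above background, and from -4.90 to -3.87 in the other 5 brains, with 5 or 6 of 8. Alb was at 0.57 in the brain of WT1 and from -6.04 to -3.87 in the others. Ttr, which liver cells also express, was at 5.87 in WT1. In the liver of that mouse, Alb was at 9.08 and Ttr at 8.44. The part of liver cells in the Ttr level of this brain was not tested. Without WT1 the difference of Ttr between genotypes in the brain was 1.12, against 0.85 with all mice.

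**Figure D5:**
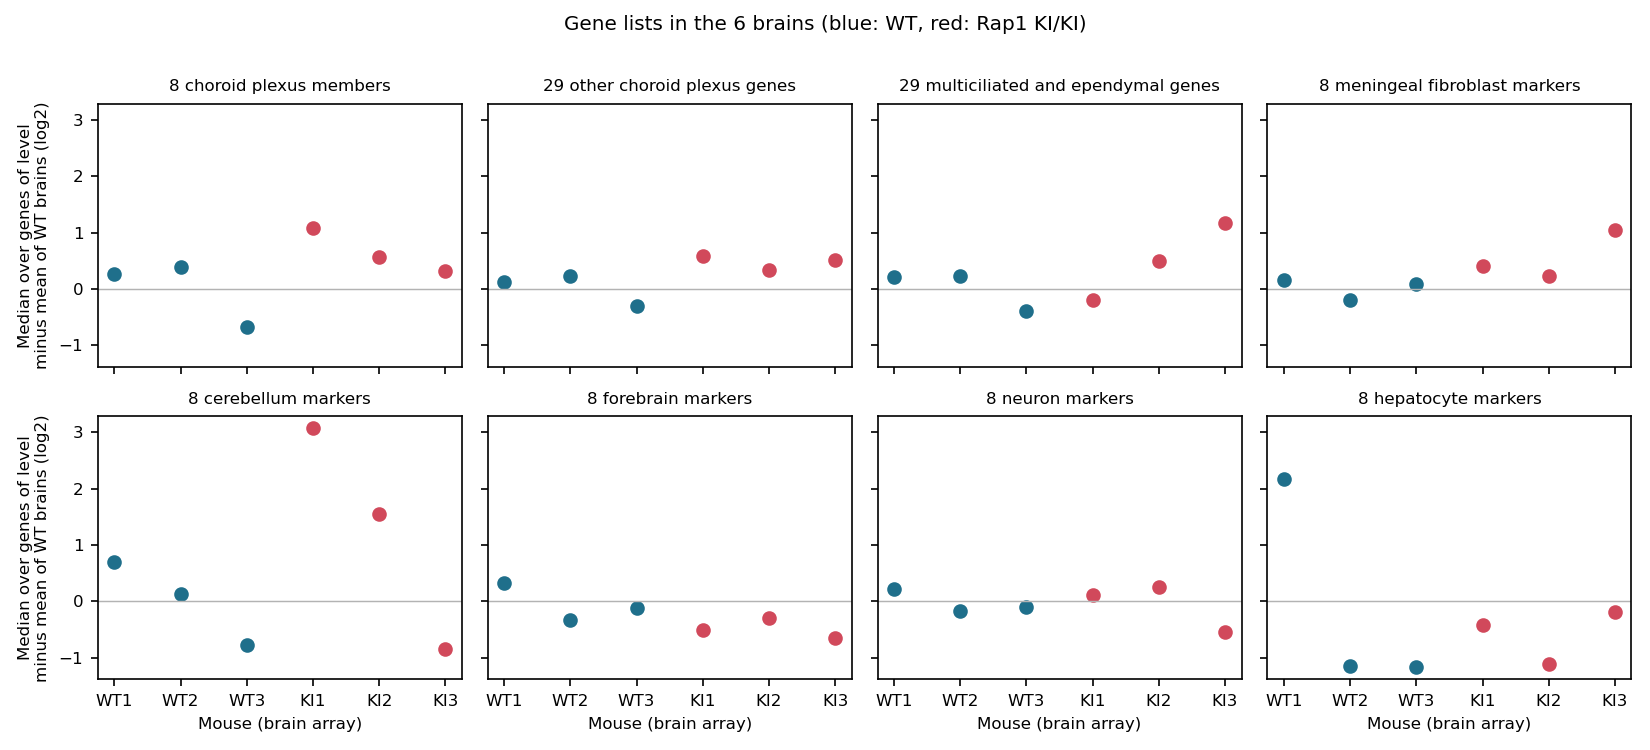
Median over the genes of a list of their level minus the mean of the WT brains (y axis, log2) in each of the 6 brains (x axis), for the 8 choroid plexus members, other choroid plexus and ciliated genes, and markers of neighbouring cells, brain regions and liver cells. WT3 is low and KI1 high for choroid plexus genes, KI3 is highest for ciliated and meningeal genes, KI1 for cerebellum markers and WT1 for hepatocyte markers.

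Most pathway lists around the members had a median genotype difference close to 0 in the brain. The median difference was 0.10 over the 10 genes of thyroid hormone and retinol transport, 0.06 over the 7 of the FGF23 list, 0.17 over the 9 of the lysophosphatidic acid list, 0.01 over 7 of the prolactin receptor pathway, -0.06 over 7 aquaporins and 0.08 over 9 adenylate kinases. Each of these lists includes its member. It was 0.53 over the 4 folate genes, of which Folr2 was at 1.16 (SE 0.49), and 0.40 over the 5 chloride intracellular channels. In the lysophosphatidic acid list, Lpar5 was lower (-0.67, SE 0.18, unadjusted p = 0.0098) and Lpar4 was at 0.59 (SE 0.27), both with a limma adjusted p of 1.

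In the liver, 8 members were tested (the Foxj1 array of WT2 was not above background), since Kl and Otx2 were not above background on enough arrays, and 4 were higher in mean in the Rap1 KI/KI mice. There, 0 of 35253 probes (0%) passed the adjusted threshold and 2.13% were at an unadjusted p under 0.05, as were Foxj1 and Clic6. Foxj1 was at -4.97, -5.71 and -4.76 in the WT livers and at -3.71, -3.28 and -4.39 in the Rap1 KI/KI livers, with no overlap. It differed by 1.35 (SE 0.37, limma adjusted p = 1), and by 1.07 to 1.65 with each mouse left out. The difference depended on the processing, and over the other alternatives it fell to as little as 0.26. After normexp background correction 0 liver members were at an unadjusted p under 0.05. Clic6 differed by 0.89 (SE 0.38, adjusted p = 1), with overlap of the groups, and by as little as 0.16 in the alternatives. The 2 members without overlap, both higher in Rap1 KI/KI livers, were Foxj1 and Enpp2, against 2.77% of all probes. Of 20 other multiciliated genes tested in the liver, 13 were higher and 7 lower (median 0.05).

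In heart and muscle no member was at an unadjusted p under 0.05, and the genotypes overlapped at all 7 members tested in each. In the heart 0% of 34862 probes passed the adjusted threshold, 7.51% were at an unadjusted p under 0.05 and 14.7% did not overlap. In the muscle, with 32396 probes, these shares were 0%, 2.47% and 6.45%. The largest difference of a member was that of Enpp2 among the hearts (0.64, SE 0.41), whose fat cell markers are given above, and that of Ttr among the muscles (-1.70, SE 0.95), whose Alb levels are given above. On the slide that held 4 hearts 6 of 7 members were higher in Rap1 KI/KI mice, and on the slide with the hearts of WT3 and KI3 3 of 7 were.

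Whether the genotype difference itself differed between tissues was tested over all 24 arrays. At an adjusted p of 0.05, 0% of 42469 probes passed an F test of the 3 interaction terms and 0% the contrast of the brain against the mean of the other tissues, and 2.93% and 2.92% were at an unadjusted p under 0.05. Aqp1 was the member with the smallest p, with a genotype difference larger in the brain than elsewhere by 1.16 (SE 0.30, limma adjusted p = 1). That contrast was 0.82 without WT3 and up to 1.48 without KI2. For Ttr it was 1.55 (SE 0.90) and for Kl 1.30 (SE 0.82), and the other members were between -0.14 and 0.75, none with an unadjusted p under 0.05.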

How the data were processed

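Each of the 24 1-color Agilent arrays came with spot intensities that the authors deposited as Feature Extraction 12.0.3.1 wrote them, background-subtracted and detrended, with no scaling between arrays. The authors also deposited a score table, which holds log10 intensities centred and divided by their SD on each array (recomputed within 0.005). Control and outlier-flagged spots were left out and spots of a probe averaged. Probes well above background on 3 of 6 arrays of a tissue were tested (limma 3.58.1, R 4.3.3; two-sided, Benjamini-Hochberg over all tested probes). Named genes were all members, from each list at most the 5 with the largest brain difference and the 3 with the smallest genotype p in the brain, and the 5 most like Ttr and Foxj1 by Pearson's r; 1 result is not reported here. Members and lists were chosen with earlier results of these data known. Names and promoters are RefSeq's. The animal number marks 1 mouse in all tissues. Over 36 pairs of arrays of 1 mouse in different tissues, deviations from the group means correlated from -0.32 to 0.38 (median 0.09). Alternatives were quantile scaling, normexp on median signals (offset 50; mean signals were not used here), the score table, probe filters, eBayes settings, blocks for slide, age and mouse, single genotypes and leaving out mice or arrays. Scripts were tested on simulated data. The p-values measure the spread between mice.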

Additional observations from a re-analysis of the deposited data

How the results depend on the processing

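With 3 mice per genotype and 1 array per mouse and tissue, no genotype call of any probe was made in the brain, liver, heart or muscle under any alternative, and all 10 members kept a higher mean in the Rap1 KI/KI brains under every alternative with all mice. Members near background (Otx2, Kl, Foxj1 and Ak7 outside the brain) limit the comparisons there. The mouse as a replicate block (consensus correlation 0.0258), which rests on the same animals giving all 4 tissues, changed no call of a member; the lowest adjusted p of a member in the brain was 0.86 with it and 0.84 without it in the same fit.

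Log2 differences that turned direction were, with normexp, Otx2 between genotypes in the heart (-0.045), Folr1 between genotypes in the muscle (0.020), Ak7 between brain and muscle (-0.11), Foxj1 and Otx2 between liver and muscle (-0.22 and -0.50) and Otx2 between heart and muscle (-0.41). With quantile scaling it was Ak7 between heart and muscle (0.00086). In the score table, rounded to few decimals, Folr1 had no difference between genotypes in the liver (0). With the slide as a block they were Otx2 between liver and heart (0.37) and Folr1 and Clic6 between liver and muscle (0.32 and 0.55). In WT arrays alone they were Otx2 between liver and heart (0.12) and Folr1 between heart and muscle (-0.010), and in Rap1 KI/KI arrays alone Otx2 between liver and muscle (-0.40). Without the muscle array of KI3 and the heart arrays of KI1 and KI3 it was Clic6 between heart and muscle (-0.63). The second probe turned Folr1 between genotypes in the liver (0.15), between liver and heart (1.35) and between liver and muscle (1.38), and Prlr between genotypes in the muscle (-0.23). Of these, the main difference had passed the threshold for Ak7 between brain and muscle, Foxj1 between liver and muscle, and Folr1 between liver and heart. The causes were not tested.

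Calls lost in some alternative, beside those given with Ttr, Enpp2, Clic6, Prlr and Ak7 above, included that of Folr1 between liver and heart (5 of 6 mice left out in turn). That of Foxj1 between liver and heart was also lost in an alternative (difference down to 0.39, limma adjusted p up to 0.060). Counts of probes called between tissues moved by more than 1.5 times in some alternatives. The filter for probes above background on all 24 arrays left 24557 to test, against 42469, so its counts start from fewer probes. They were 19805 between brain and liver, 17521 between brain and heart, 18311 between brain and muscle, 17816 between liver and heart and 18603 between liver and muscle. With the slide as a block the counts were 18418 between liver and heart and 17065 between liver and muscle. Between heart and muscle they were 12139 in WT arrays alone and 11097 in Rap1 KI/KI arrays alone.

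With each mouse left out in turn, 0 to 4 probes passed the interaction F test. In the brain the genotype difference of Ak7 ranged from -0.17 to 0.71 and of Otx2 from -0.036 to 0.38. In the liver that of Folr1 ranged from -0.36 to 0.11 and of Prlr from -0.28 to 0.11. In the heart the ranges were -0.025 to 1.18 for Folr1, -0.51 to 0.62 for Ttr, -0.34 to 1.35 for Clic6, -0.63 to 0.047 for Prlr and -0.042 to 0.89 for Otx2. In the muscle they were -0.056 to 0.24 for Aqp1, -0.29 to 0.12 for Folr1, -0.18 to 0.25 for Enpp2, -0.38 to 0.37 for Clic6 and -0.19 to 0.80 for Prlr. Between tissues, Otx2 ranged from -1.09 to 0.081 (liver minus heart) and from -0.51 to 0.61 (liver minus muscle), and heart minus muscle ranged from -0.016 to 0.59 for Folr1 and from -0.19 to 0.97 for Clic6. The contrast of the genotype difference in the brain against the other tissues ranged from -0.34 to 0.63 for Ak7, from -0.33 to 0.14 for Enpp2 and from -0.52 to 0.44 for Clic6.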
